A study of Mus musculus with 12 samples.

Results

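The MHC class II genes described here are the 7 rows Cd74, H2-Aa, H2-Ab1, H2-Eb1, H2-DMa, H2-DMb1 and Ciita of a table of read counts for 24384 genes in mouse hippocampus, taken by name as the pathway's members, with earlier results of these data known. Polyadenylated RNA was sequenced in 12 libraries, 4 in each of 3 groups. The first group was littermate controls, with no further genotype in the labels. The second was rTg4510, a line in which a mutant human tau transgene is switched on in forebrain neurons through the Camk2a promoter, and the third was rTg4510 mice given 3TC (lamivudine), an inhibitor of reverse transcriptase. Each group holds 2 females and 2 males by the labels, and libraries are named here by group and by the labels' code for sex and number (F2, M3). The labels used here state neither age nor strain, and neither the dose of 3TC nor how long it was given. The series title asks how 3TC changes hippocampal signatures of inflammation in this tauopathy model.

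MHC class II molecules are pairs of an alpha and a beta chain that display peptides from the endosomes of a cell to CD4 T cells. The invariant chain, encoded by Cd74, escorts the new pair to the endosome and blocks its groove until cathepsins cut it down. The DM molecule then exchanges the remaining fragment for a peptide, and the coactivator CIITA switches the whole set of genes on, in many cells in response to interferon gamma. In the brain, class II is carried mainly by macrophages of the meninges, vessels and choroid plexus and by dendritic cells, and microglia, which carry little at rest, can gain it in disease.

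Libraries held 27286787 to 58173678 counts each among littermates, 29732904 to 36112922 among untreated rTg4510 and 27351630 to 35357415 among treated mice. The labels do not tie libraries to individual mice, and p-values therefore rest on the variation among libraries, which may be partly technical. Prnp, whose sequence the tau transgene's vector carries, lay at 684.6 to 785.3 CPM (counts scaled to the size of each library) in littermates and at 1537 to 3016 CPM in the 8 transgenic libraries, which separates transgenic from littermate libraries as labelled and says nothing of treatment. The sex labels of 2 littermate libraries went against their counts: F3 had 1 count of Xist and 1525 of the Y-linked Ddx3y, and M3 had 23156 and 0. Sex was therefore no term of the fit. Hippocampal neuron markers summed to 277 to 677 CPM over 8 genes, but single markers set some libraries apart. In rTg4510 F3, Fibcd1 was at 12.4 CPM, C1ql2 at 1.17 and Spink8 at 0.228, against 77.7 to 128, 20.8 to 47.1 and 4.34 to 7.83 CPM in the rest of its group, and its myelin markers (6 genes) summed to 2510 CPM against 5006 to 5947. In littermate M2, Fibcd1 was at 11.3 CPM against 119 to 152 in the other littermates, and myelin markers summed to 9774 CPM against 5515 to 6685. In rTg4510+3TC F2, Dsp was at 7.11 CPM against 13.1 to 36.5 and Wfs1 at 73.9 against 163 to 189 in its group. There Prox1, Iyd and Cpne4 were also lowest of the group, while C1ql2 was highest (35.3 CPM against 16.5 to 29.3). Fibcd1 and Spink8 lay within the range of that group. Wfs1 was low in littermate M3 too (77.8 CPM against 125 to 214 in the other littermates). The fits without rTg4510 F3, littermate M2 and rTg4510+3TC F2 are given beside the class II medians. Choroid plexus markers (7 genes) summed to 3778 and 2091 CPM in littermates F1 and F3 and to 4363 CPM in rTg4510 M1, against 24.3 to 182 CPM in the other 9 libraries.

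Class II transcripts were scarce in this tissue, where more cells of a type and more RNA per cell cannot be told apart. All 7 genes passed the filter on low counts, with means over the 12 libraries from 0.926 CPM for H2-Eb1 to 11.9 CPM for H2-DMa. These levels stood between the 12.7 and the 41.8 percentile of the 16618 tested genes, and the lowest single value was 5 reads, for H2-Eb1 in littermate M2. Per kilobase of the principal transcript, the order of levels was H2-DMa (7.15 ± 0.957 CPM per kb, SD, n = 12), Cd74 (2.61 ± 1.14), H2-Ab1 (1.44 ± 0.653), H2-Aa (1.004 ± 0.519), H2-DMb1 (0.744 ± 0.393), H2-Eb1 (0.555 ± 0.344) and Ciita (0.401 ± 0.144). The ranges of H2-DMa (4.88 to 8.22 CPM per kb) and Cd74 (1.18 to 5.33) met only at their edges, and every other pair of neighbours in this order overlapped widely. With all annotated exons as the length, H2-Aa came below H2-DMb1 and H2-Eb1, and the first 3 and the last kept their places.

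Of the 7 genes, 6 varied more between libraries of a group than most genes did. The biological coefficient of variation, the spread between libraries beyond counting error as edgeR estimates it, was 30.6% for Ciita, 36.8% for Cd74, 41.6% for H2-Ab1, 54.2% for H2-DMb1, 55.4% for H2-Aa and 64.4% for H2-Eb1. Its median was 28.8% over the 7488 genes between 0.5 and 20 CPM and 18.0% over all tested genes. H2-DMa was the exception at 16.5%.

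The promoters of class II genes are known for a shared module, in which an X box bound by RFX factors is followed by a Y box, a reversed CCAAT sequence bound by NF-Y, and on which CIITA assembles. RefSeq promoter sequences (build GRCm38.p6, the assembly of mm10) were at hand for 4 of the 7 genes. Of these, 3 are shown because they carry both cores of the module at nearly the same distance on the strand of the gene. Capitals mark GNAACT, taken here as the X core, and ATTGG, the Y core.
H2-Aa: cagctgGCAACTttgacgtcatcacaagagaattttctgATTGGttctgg
H2-Eb1: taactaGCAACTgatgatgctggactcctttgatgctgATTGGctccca
H2-DMb1: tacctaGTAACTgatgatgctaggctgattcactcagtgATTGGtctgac
These stretches are chr17:34287861-34287910 (minus strand), chr17:34305770-34305818 (plus strand) and chr17:34153091-34153140 (plus strand). The starts of the 2 cores lay 33, 32 and 33 bases apart, and the Y core ended 43, 54 and 56 bases before the RefSeq start of the gene. The GENCODE position of H2-DMb1 given below starts at 34153072, so its stretch lies before the RefSeq start and after the GENCODE start. The letters of the cores were chosen after these sequences had been read. Searched on both strands in the 250 bases before each start, GNAACT stood in 37.3% and ATTGG in 33.8% of 32851 promoters, and GNAACT followed by ATTGG at 15 to 45 bases in 1.13%. For H2-DMa, 2 starts were at hand, and the pair of cores was in neither window.

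Cd74 (chr18, 60803848 to 60812652, mm10), the invariant chain, had the largest log2 fold change of the 7 genes between rTg4510 and littermates, and it did not pass the test. Its level was 4.34 CPM in littermate F1, 1.66 in F3, 2.08 in M2 and 1.78 in M3. In rTg4510 it was 3.19 CPM in F2, 4.73 in F3, 3.57 in M1 and 4.65 in M3. In rTg4510+3TC it was 4.23 CPM in F2, 7.52 in F3, 3.37 in M2 and 2.97 in M3. Every transgenic library thus lay above littermates F3, M2 and M3, while littermate F1 lay within the range of both transgenic groups. The means were 2.47 ± 1.26, 4.03 ± 0.774 and 4.52 ± 2.07 CPM (SD, n = 4 each). The log2 fold change was 0.70 ± 0.36 (SE) for rTg4510 against littermates (adjusted p = 0.965, edgeR quasi-likelihood test with Benjamini-Hochberg adjustment over all tested genes). It was 0.87 ± 0.36 for rTg4510+3TC against littermates (adjusted p = 0.532; unadjusted p = 0.0323) and 0.17 ± 0.36 for rTg4510+3TC against rTg4510 (adjusted p = 0.9998). Without littermate F1 the first of these became 1.12 (adjusted p = 0.999) and the second 1.28 (adjusted p = 0.474). Without rTg4510+3TC F3 the second became 0.50 and the third turned to -0.20.

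**Figure D1:**
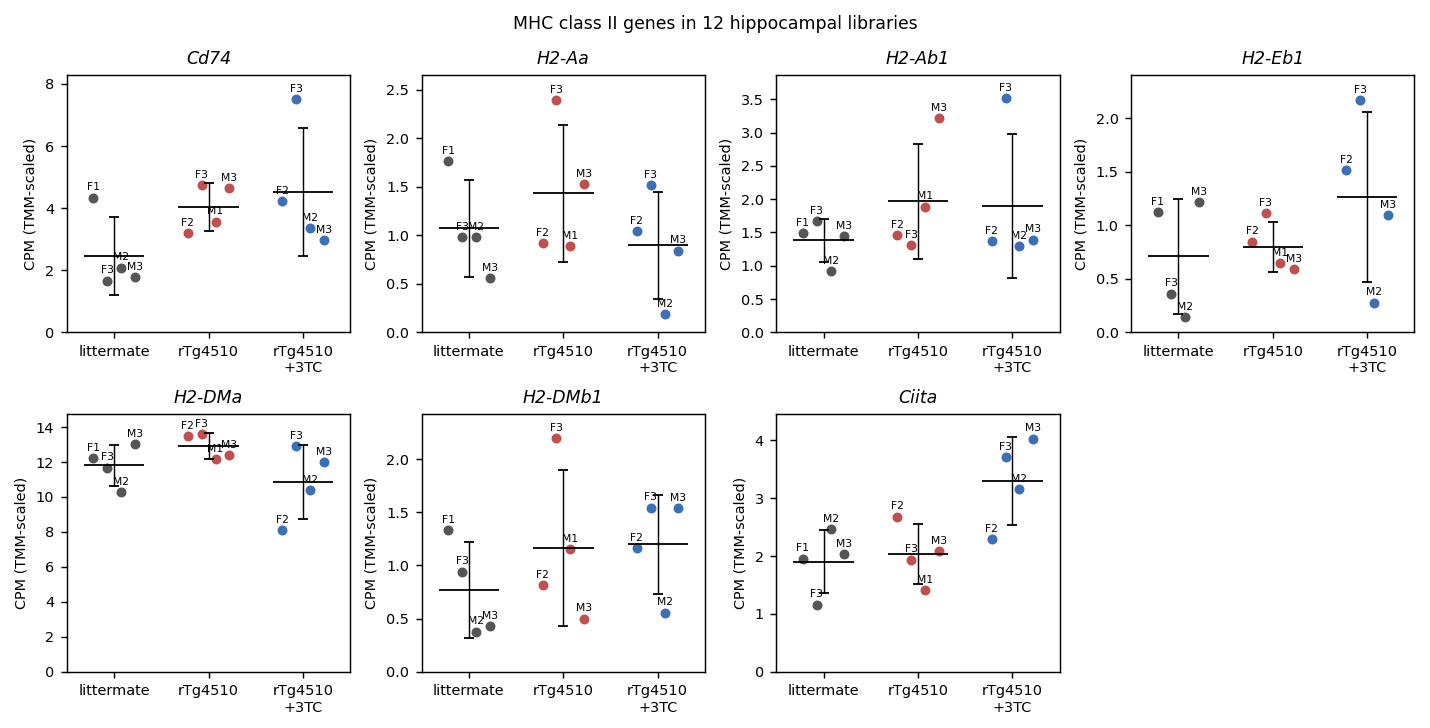
Level of each MHC class II gene in CPM with TMM scaling (y axis, linear, from 0) in the 3 groups (x axis). Each point is 1 library with its code, the horizontal line is the group mean and the bar is 1 SD (n = 4). The groups overlap for all 7 genes, and rTg4510+3TC F3 is the highest library for Cd74, H2-Ab1 and H2-Eb1.

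H2-Aa, H2-Ab1 and H2-Eb1 encode peptide-binding chains: the alpha and the beta chain of the A molecule and the beta chain of the E molecule. The partner of the last is encoded by H2-Ea, which the table lists as the pseudogene H2-Ea-ps, with 4 and 5 counts in rTg4510 M1 and rTg4510+3TC M2 and 0 in the other libraries. H2-Aa (chr17, 34282744 to 34287823, mm10) ran from 0.558 CPM in littermate M3 to 1.76 in F1, with F3 and M2 at 0.977 and 0.983. In rTg4510 it was 0.916 CPM in F2, 2.39 in F3, 0.885 in M1 and 1.53 in M3, and in rTg4510+3TC 1.04 in F2, 1.52 in F3, 0.185 in M2 and 0.843 in M3. The value of 0.185 CPM stands for 6 reads (exact Poisson 95% interval 0.0681 to 0.404 CPM, counting error only), and this interval met that of littermate M3 (0.350 to 0.845 CPM) and of no other library. Log2 fold changes were 0.41 ± 0.58 for rTg4510 against littermates, -0.67 ± 0.58 for rTg4510+3TC against rTg4510 and -0.26 ± 0.58 for rTg4510+3TC against littermates (SE). Their adjusted p-values were 0.996, 0.9998 and 0.935. The first was 0.04 without rTg4510 F3.

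H2-Ab1 (chr17, 34257689 to 34269419, mm10) stood at 1.49 CPM in littermate F1, 1.66 in F3, 0.925 in M2 and 1.45 in M3. In rTg4510 it was 1.46 CPM in F2, 1.31 in F3, 1.89 in M1 and 3.21 in M3. In rTg4510+3TC it was 1.37 CPM in F2, 3.52 in F3, 1.30 in M2 and 1.39 in M3. In each transgenic group 1 library was thus above 3 CPM, and the other 10 libraries held between 0.925 and 1.89. The log2 fold changes against littermates were 0.51 ± 0.42 in rTg4510 and 0.46 ± 0.42 in rTg4510+3TC (SE; adjusted p = 0.984 and 0.796), and between the transgenic groups -0.05 ± 0.41. Without rTg4510 M3 the first was 0.16, and without rTg4510+3TC F3 the second was -0.04.

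H2-Eb1 (chr17, 34305867 to 34316674, mm10) was the scarcest of the 7 and the one with the widest spread. It stood at 1.12 CPM in littermate F1, 0.362 in F3, 0.145 in M2 and 1.22 in M3. In rTg4510 its levels were 0.848 CPM in F2, 1.11 in F3, 0.649 in M1 and 0.593 in M3, and in rTg4510+3TC 1.52 in F2, 2.17 in F3, 0.278 in M2 and 1.10 in M3. The littermate and treated groups each spanned more than the whole range of the untreated rTg4510 group. Log2 fold changes were 0.15 ± 0.68 (rTg4510 against littermates), 0.66 ± 0.68 (rTg4510+3TC against rTg4510) and 0.81 ± 0.68 (rTg4510+3TC against littermates, SE), with adjusted p-values of 0.998, 0.9998 and 0.772. The sign of the first turned without rTg4510 F3, littermate F3 or littermate M2 (-0.06, -0.06 and -0.18).

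The 2 chains of the DM peptide exchanger behaved differently from each other. H2-DMa (chr17, 34119541 to 34139101, mm10), the alpha chain, was the steadiest class II gene, at 10.3 to 13.04 CPM in littermates, 12.2 to 13.6 in untreated rTg4510 mice and 8.09 to 12.9 in those given 3TC, where F2 was lowest. Its log2 fold changes had the narrowest intervals of the 7 genes, 0.13 (95% interval -0.18 to 0.44) for rTg4510 and -0.12 (-0.44 to 0.19) for the treated group against littermates, and -0.25 (-0.56 to 0.06) between the transgenic groups. The last became -0.13 without rTg4510+3TC F2. H2-DMa overlaps Brd2 on the other strand, and Brd2 stood at 270 to 310 CPM. No source used here states whether counting used strand, so reads of the 2 genes cannot be told apart where they overlap.

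H2-DMb1 (chr17, 34153072 to 34160230, mm10), the beta chain, was at 1.33 CPM in littermate F1, 0.941 in F3, 0.376 in M2 and 0.431 in M3. In rTg4510 it was 0.814 CPM in F2, 2.19 in F3, 1.15 in M1 and 0.499 in M3, and in rTg4510+3TC 1.16 in F2, 1.54 in F3, 0.556 in M2 and 1.54 in M3. All 3 groups overlapped. Log2 fold changes were 0.59 ± 0.57 in rTg4510 and 0.63 ± 0.57 in rTg4510+3TC against littermates, and 0.04 ± 0.57 between the transgenic groups (SE). Without rTg4510 F3 the first was 0.08. H2-DMb2, a near copy of H2-DMb1 with which it can share reads, stood at 0.405 ± 0.0647 CPM in littermates, 0.485 ± 0.228 in rTg4510 and 0.609 ± 0.454 in rTg4510+3TC (SD, n = 4 each).

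Ciita (chr16, 10480059 to 10528418, mm10), the coactivator, had another pattern, with close means in littermates (1.90 ± 0.542 CPM) and rTg4510 (2.03 ± 0.520) and a higher one in rTg4510+3TC (3.30 ± 0.763, SD, n = 4 each). It stood at 1.95 CPM in littermate F1, 1.16 in F3, 2.46 in M2 and 2.03 in M3. In rTg4510 it was 2.68 CPM in F2, 1.94 in F3, 1.42 in M1 and 2.09 in M3. In rTg4510+3TC it was 2.29 CPM in F2, 3.72 in F3, 3.15 in M2 and 4.03 in M3. Of the 4 treated libraries, 3 lay above all 8 others, and F2 lay within their range. The log2 fold change was 0.70 ± 0.30 (SE) for rTg4510+3TC against rTg4510 (95% interval 0.05 to 1.35; unadjusted p = 0.0371, adjusted p = 0.9998). Against littermates it was 0.79 ± 0.30 in rTg4510+3TC (0.14 to 1.44; unadjusted p = 0.0208, adjusted p = 0.502) and 0.09 ± 0.30 in rTg4510. The treated group thus did not differ from either other group past the threshold. Without each library in turn, the change between the transgenic groups lay between 0.55 and 0.86. Dexi, which overlaps Ciita on the other strand, stood at 38.2 ± 3.49 CPM in littermates, 34.4 ± 2.77 in rTg4510 and 35.3 ± 5.71 in rTg4510+3TC.

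**Figure D2:**
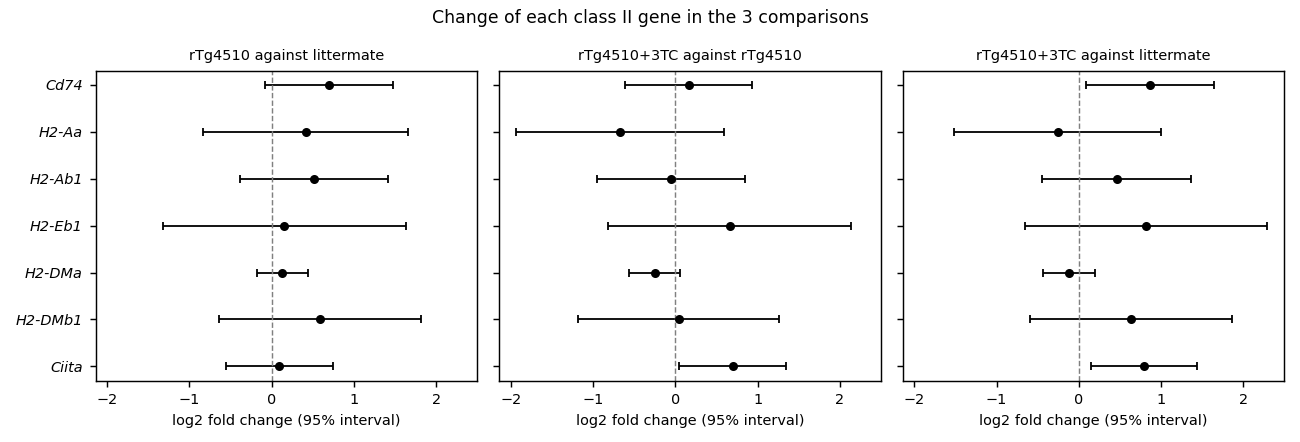
Log2 fold change of each MHC class II gene (x axis) with its 95% interval from the edgeR fit, for the 3 comparisons (panels). Only the intervals of Ciita in the comparisons of treated mice and of Cd74 in treated mice against littermates leave out 0 before adjustment, and none of the 21 values passes after it.

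Of the 7 genes, 0 passed in any of the 3 comparisons with edgeR, and 0 with DESeq2 and limma-voom. For rTg4510 against littermates all 7 log2 fold changes were positive, with a median of 0.41, where 49.8% of all tested genes were positive and their median was -0.00140. In this comparison 0 of 7 had an unadjusted p under 0.05, against 5.24% of all genes, and 0 of 7 had groups that did not overlap, against 3.89%. Over all genes 0.0301% were called. For rTg4510+3TC against rTg4510, 4 of 7 were positive, with a median of 0.04, against 49.8% of all genes and their median of -0.000538. Here 1 of 7 had an unadjusted p under 0.05, against 3.82%, 0 of 7 had groups that did not overlap, against 2.46%, and 0% of all genes were called. For rTg4510+3TC against littermates, 5 of 7 were positive, with a median of 0.63, against 49.1% of all genes and their median of -0.00399. Here 2 of 7 had an unadjusted p under 0.05, against 8.59%, 0 of 7 had groups that did not overlap, against 5.86%, and 0.0481% of all genes were called. The comparisons share libraries, so their directions are not independent of each other. Nor are the 7 genes independent of each other within a comparison. Of their 21 pairs, 19 correlated positively over the 12 libraries (median r = 0.31), and 19 did after removal of the group means (median r = 0.37). The 95% intervals reached from 0.31 (H2-DMa) to 1.48 (H2-Eb1) to each side of the estimate, in log2 units and before adjustment. For rTg4510 against littermates, those of Cd74, H2-Aa, H2-Ab1, H2-Eb1 and H2-DMb1 held both 0 and a 2-fold increase.

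**Figure D3:**
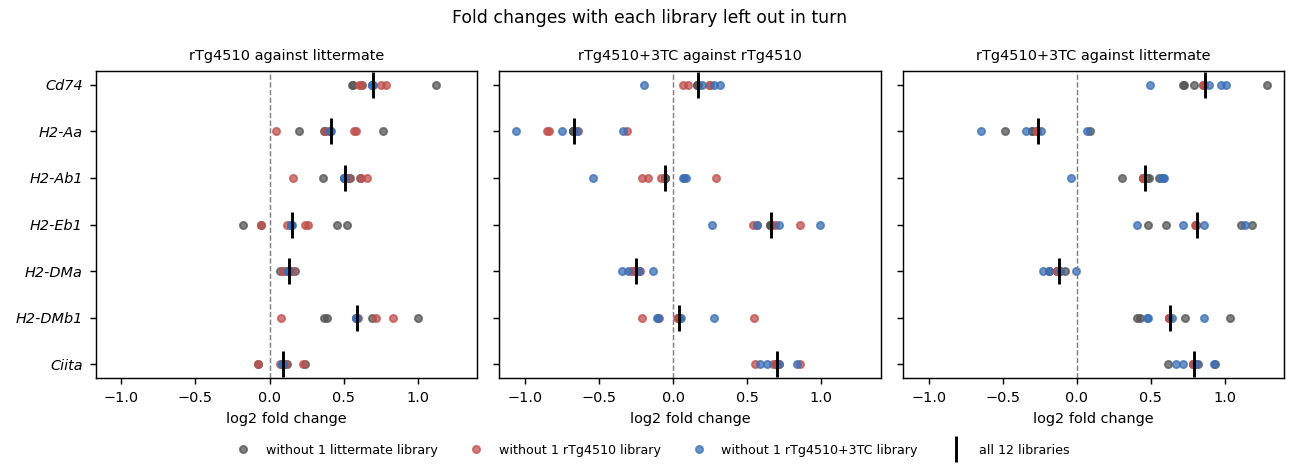
Log2 fold change of each MHC class II gene (x axis) with all 12 libraries (black bar) and with each library left out in turn (points, coloured by the group of the library left out), for the 3 comparisons (panels). For rTg4510 against littermates the points of Cd74, H2-Aa, H2-Ab1, H2-DMa and H2-DMb1 all lie above 0, and the median over the 7 genes ranges from 0.09 to 0.57.

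The extremes of the class II genes fell in a few libraries. Of the 7 genes, 3 were highest in rTg4510+3TC F3 (Cd74, H2-Ab1 and H2-Eb1), 3 in rTg4510 F3 (H2-Aa, H2-DMa and H2-DMb1) and 1 in rTg4510+3TC M3 (Ciita). No gene was highest in a littermate library. The 5 genes lowest in a littermate were lowest in M2 (3 genes) or F3 (2 genes), and none in F1 or M3. Littermates are 4 of the 12 libraries, and the share of such extremes over all tested genes was not computed. In rTg4510+3TC F3 all 7 genes lay above their own means over the 12 libraries, by 0.83 on the log2 scale on average. In littermate M2 and rTg4510+3TC M2 1 gene did, with average deviations of -0.67 and -0.58. The treated group thus held both the library with the highest class II levels and one of the lowest. Without rTg4510+3TC F3, the median change of the 7 genes between the transgenic groups went from 0.04 to -0.20, and without rTg4510 F3 the median for rTg4510 against littermates went from 0.41 to 0.09. Without littermate M2, rTg4510 F3 and rTg4510+3TC F2 together, the libraries set apart by hippocampal markers, this median was 0.04 (5 of 7 positive). It was then 0.42 (5 of 7) for the treated group against littermates and 0.28 (4 of 7) between the transgenic groups.

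**Figure D4:**
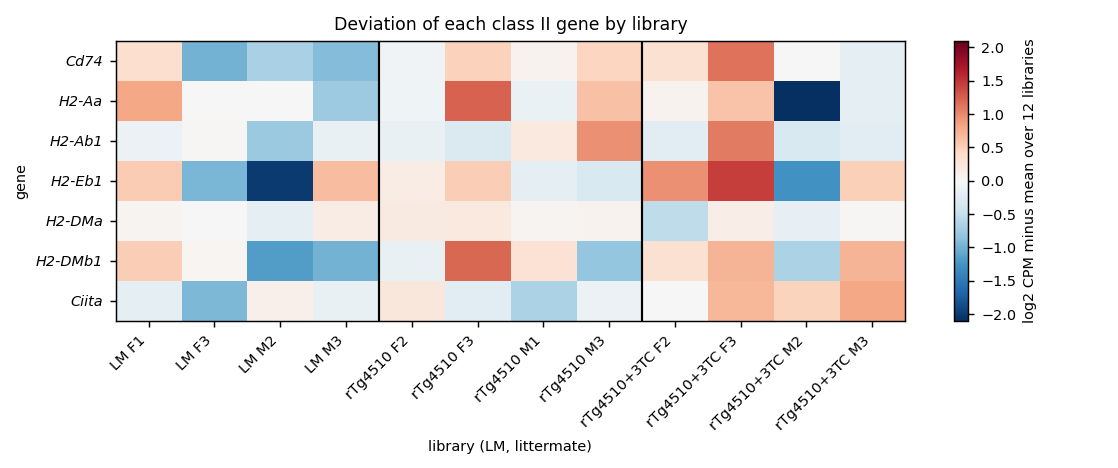
Log2 CPM of each MHC class II gene minus its mean over the 12 libraries (colour scale) by library (x axis), with black lines between the groups. rTg4510+3TC F3 is above the mean for all 7 genes, while littermate M2 and rTg4510+3TC M2 are above it for 1.

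Across the 12 libraries the other members rose and fell with Cd74 only loosely. The correlation of log2 CPM with Cd74 was highest for H2-Ab1 (Pearson r = 0.58, permutation p = 0.0438, Spearman rho = 0.31, permutation p = 0.320), H2-Eb1 (r = 0.56, permutation p = 0.0598, rho = 0.45, p = 0.140) and H2-DMb1 (r = 0.55, permutation p = 0.0649, rho = 0.58, p = 0.0522). For H2-Aa r was 0.44 (permutation p = 0.155) and rho 0.69 (p = 0.0165), for Ciita 0.38 (permutation p = 0.223) and 0.08 (p = 0.800), and for H2-DMa 0.09 (permutation p = 0.768) and 0.34 (p = 0.275). None of these 6 relations passed adjustment over the 6 (smallest adjusted p = 0.130 for Pearson's r and 0.0989 for Spearman's rho, permutation tests). Without rTg4510+3TC F3 and littermate F3, the libraries farthest from the median of Cd74, r was 0.48 for H2-Ab1, 0.32 for H2-Eb1, 0.61 for H2-DMb1, 0.49 for H2-Aa, -0.04 for H2-DMa and -0.22 for Ciita. Groups of 4 are too small for values within each group. After removal of the group means r was 0.69 for H2-Aa, 0.50 for H2-Ab1, 0.48 for H2-Eb1, 0.42 for H2-DMb1, 0.20 for H2-DMa and 0.12 for Ciita.

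Among 14388 other genes at or above 1 CPM, those most alike in pattern to the mean of the 7 standardised genes over the 12 libraries were 9130011E15Rik (r = 0.87), Smu1 (0.85), Klf7 (0.82), Gnai1 (0.80), Fam35a (0.80) and Foxd1 (0.79). They were picked for this likeness, so no test is given. None of them was in the lists of immune genes or cell type markers used here, and their levels ran from 40.7 to 54.5 CPM for Smu1 and from 0.868 to 2.79 CPM for Foxd1. The first 3 were highest in rTg4510+3TC F3 and the last 3 in rTg4510 F3, the libraries that were highest for 6 of the 7 class II genes.

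The difference of the 3TC effect between labelled sexes was tested within the 8 transgenic libraries. No class II gene passed (adjusted p = 0.9999 for all 7, edgeR), where 0% of 17079 genes did and 2.96% had an unadjusted p under 0.05. DESeq2 called 4 genes. H2-Ab1 had the smallest p of the 7 (unadjusted p = 0.0628), with 1.38 CPM in untreated and 2.44 in treated females and 2.55 and 1.35 CPM in males, a log2 difference of -1.74 ± 0.80 (SE, male minus female). Each of these means stands for 2 libraries.

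Of the rest of the pathway, cathepsin S was the gene that stood out most, without passing. Ctss, whose product trims the invariant chain, was at 60.9 ± 7.82 CPM in littermates, 91.2 ± 14.3 in rTg4510 and 104 ± 26.97 in rTg4510+3TC (SD, n = 4 each). Its log2 fold change was 0.58 ± 0.17 (SE; unadjusted p = 0.00532, adjusted p = 0.945) in rTg4510 and 0.77 ± 0.17 (unadjusted p = 0.000700, adjusted p = 0.237) in rTg4510+3TC against littermates. Littermate M2, at 72.6 CPM, lay just above rTg4510 F3 (72.0) and rTg4510+3TC F2 (72.1), so the groups overlapped. In the list of 6 genes of class II peptide processing (Ctss, Ctsl, Ctsb, Ctsd, Lgmn and Ifi30) 0 passed in either direction. In it 5 and 6 genes were positive against littermates in rTg4510 and rTg4510+3TC (medians 0.20 and 0.29), and 6 between the transgenic groups (0.09). Ctsb, a cathepsin of the same compartment, had 0.21 ± 0.08 and 0.23 ± 0.08 against littermates.

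The factors that bind class II promoters were all present. The 7 genes for RFX, NF-Y and CREB1 summed to 200 to 231 CPM in every library, with 0 passing and medians of -0.01, -0.07 and -0.11 in the 3 comparisons. Nfyb had the smallest p against littermates, at -0.19 ± 0.11 in rTg4510 and -0.23 ± 0.11 in rTg4510+3TC. In the interferon gamma pathway 8 of 9 genes were tested and 0 passed. Ifng itself had 4, 3 and 1 counts in rTg4510+3TC M2, littermate F1 and littermate M2 and 0 in the other 9 libraries, where a floor of 3 counts lies between 0.0519 and 0.110 CPM. Jak1, a kinase of the receptor, had log2 fold changes of 0.29 ± 0.11 in rTg4510 and 0.36 ± 0.11 in rTg4510+3TC against littermates (SE), with adjusted p-values of 0.945 and 0.415.

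Other class II chains were scarce too. H2-Ob, a chain of the DO molecule that restrains DM, averaged 0.640 ± 0.307 CPM in littermates, 0.920 ± 0.387 in rTg4510 and 1.23 ± 0.599 in rTg4510+3TC (SD, n = 4 each), and 0 of the 3 tested genes of this list passed. Of 6 costimulatory genes 5 were tested and 0 passed. Among these Cd274, which encodes PD-L1, was at 2.68 ± 0.462 CPM in rTg4510 and 4.19 ± 0.864 in rTg4510+3TC, without overlap (0.64 ± 0.25, unadjusted p = 0.0215, adjusted p = 0.9998). In this comparison 2.46% of all tested genes had groups that did not overlap. Of the partners of CD74 as a surface receptor, 3 of 4 were tested and 0 passed, with Cd44 at 0.31 ± 0.23 in rTg4510 and 0.66 ± 0.23 in rTg4510+3TC against littermates. Class I presentation genes had 9 of 9 positive and 0 passing in rTg4510 against littermates, with a median of 0.23 and B2m, the class I light chain, at 0.36 ± 0.12 (SE). The genes for the ligases MARCH1 and MARCH8, which remove class II from the surface, had no row under their symbols in the table.

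Markers of the cells that can carry class II were followed in the same libraries. All 10 border macrophage markers, such as Mrc1, Cd163 and Lyve1, had counts in every group. Their summed level was 25.1 to 29.6 CPM in littermates, 26.7 to 43.2 in untreated rTg4510 mice and 25.4 to 42.8 in those given 3TC. The highest were rTg4510 F3 (43.2) and rTg4510+3TC F3 (42.8), which were also the libraries with the highest summed class II level (27.3 and 32.9 CPM). H2-DMa alone made up 8.09 to 13.6 CPM of the class II sums. Stab1 alone made up 16.2 to 28.1 CPM of the border macrophage sums. The other 9 markers summed to 6.07 to 10.6 CPM in littermates, 8.41 to 15.7 in untreated and 8.41 to 14.7 in treated mice, again highest in rTg4510 F3 (15.7) and rTg4510+3TC F3 (14.7). The match with class II was partial at both ends. Without Stab1, rTg4510+3TC M3 (14.5 CPM) came close to rTg4510+3TC F3, while its class II sum was 23.9 CPM against 32.9. Without Stab1 the lowest library of each group was littermate M2, rTg4510 F2 and rTg4510+3TC M2. For the class II sum the lowest of each group was littermate M2 (17.2 CPM), rTg4510 M1 (21.7) and rTg4510+3TC M2 (19.2). The part of these cells in the class II values was not tested. Of the 10 markers, 8 were positive in rTg4510 and 9 in rTg4510+3TC against littermates, and 0 passed. Mrc1 had 0.54 ± 0.30 and 0.82 ± 0.30.

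The 10 microglial markers summed to 355 to 505 CPM in littermates, 448 to 482 in untreated rTg4510 mice and 359 to 511 in those given 3TC. Littermate M2, at 505 CPM, was the highest of its group for them and the lowest for class II (17.2 CPM, against 18.5 to 24.2 in the other 3). Of the disease-associated markers (10 genes), Itgax and Clec7a lay above littermates in every transgenic library, with log2 fold changes in rTg4510 of 3.38 ± 0.71 and 3.69 ± 0.87 (SE; adjusted p = 0.443 and 0.653). Littermate libraries held only 0 to 7 counts of either gene, so the sizes of these changes rest on few reads. Both genes passed the filter on low counts only through transgenic libraries. Against littermates, 2 of the 10 in rTg4510 and 3 in rTg4510+3TC did not overlap. Over all tested genes these shares were 3.89% and 5.86%. The summed level of these 10 was 208 to 236 CPM in littermates, 154 to 283 in untreated rTg4510 mice and 219 to 303 in those given 3TC. It was lowest of all libraries in rTg4510 F3 (154 CPM), where class II was the highest of its group, and highest of all in rTg4510+3TC F3 (303 CPM), where class II was highest too. Axl, Cd9 and Lpl made up most of this sum, 126 of 154 CPM in rTg4510 F3, where Lpl (17.3 CPM against 47.8 to 76.7 in the rest of the group) and Cd9 (39.5 against 63.8 to 86.4) were low. The other 7 markers summed to 28.4 CPM in rTg4510 F3, 43.2 to 48.3 in the rest of its group and 23.4 to 30.0 in littermates. Their part in the class II values was not tested.

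Markers of B and T cells were low, and the dendritic cell sum came mostly from Flt3 and Zbtb46. Of the 8 dendritic cell markers, 6 were tested, and Ccr7 had 3 counts in rTg4510 M3 and 0 in the other 11 libraries. The dendritic cell markers summed to 16.3 to 19.4 CPM in littermates, 14.6 to 15.8 in untreated rTg4510 mice and 14.5 to 22.6 in those given 3TC. Over all libraries Flt3 ran from 6.07 CPM to 16.2 in rTg4510+3TC F2, and Zbtb46 from 3.22 to 7.18. No other marker of this list was above 1.51 CPM in any library. The 5 B cell markers in the table summed to 0.415 to 1.12 CPM in littermates, 0.236 to 1.03 in untreated rTg4510 mice and 0.343 to 1.76 in those given 3TC. In rTg4510+3TC F3, the library highest in class II, the B cell sum was 0.343 CPM, the lowest of its group. The 7 T cell markers summed to 1.85 to 3.67 CPM in littermates, 1.97 to 6.95 in untreated rTg4510 mice and 2.59 to 3.93 in those given 3TC. The value of 6.95 CPM, in rTg4510 F3, was mostly Cd4 (4.62 CPM), which macrophages can also express, and Lck. Lck was at 2.17 CPM there, against 0.687 to 2.16 in the other libraries. Cd8a and Cd8b1 had 2 and 4 counts in rTg4510 F3, and Cd3e and Cd3d had 0. Cd3d also had 0 counts in most other libraries. Which cells these reads came from was not tested. Of the 3 libraries high in choroid plexus markers, littermate F1 was the highest littermate in Cd74, H2-Aa and H2-DMb1, littermate F3 was the lowest of all in Cd74 and Ciita, and rTg4510 M1 was the lowest of its group in H2-Aa and Ciita. Without these 3 libraries, M2 and M3 were the only littermates left, and M2 had the lowest class II sum of all libraries (17.2 CPM). The median change of class II genes was then 0.75 for rTg4510 and 0.67 for rTg4510+3TC against littermates, with 6 of 7 genes positive in each. Leaving out the trio set apart by hippocampal markers, which includes littermate M2, gave 0.04 and 0.42.

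**Figure D5:**
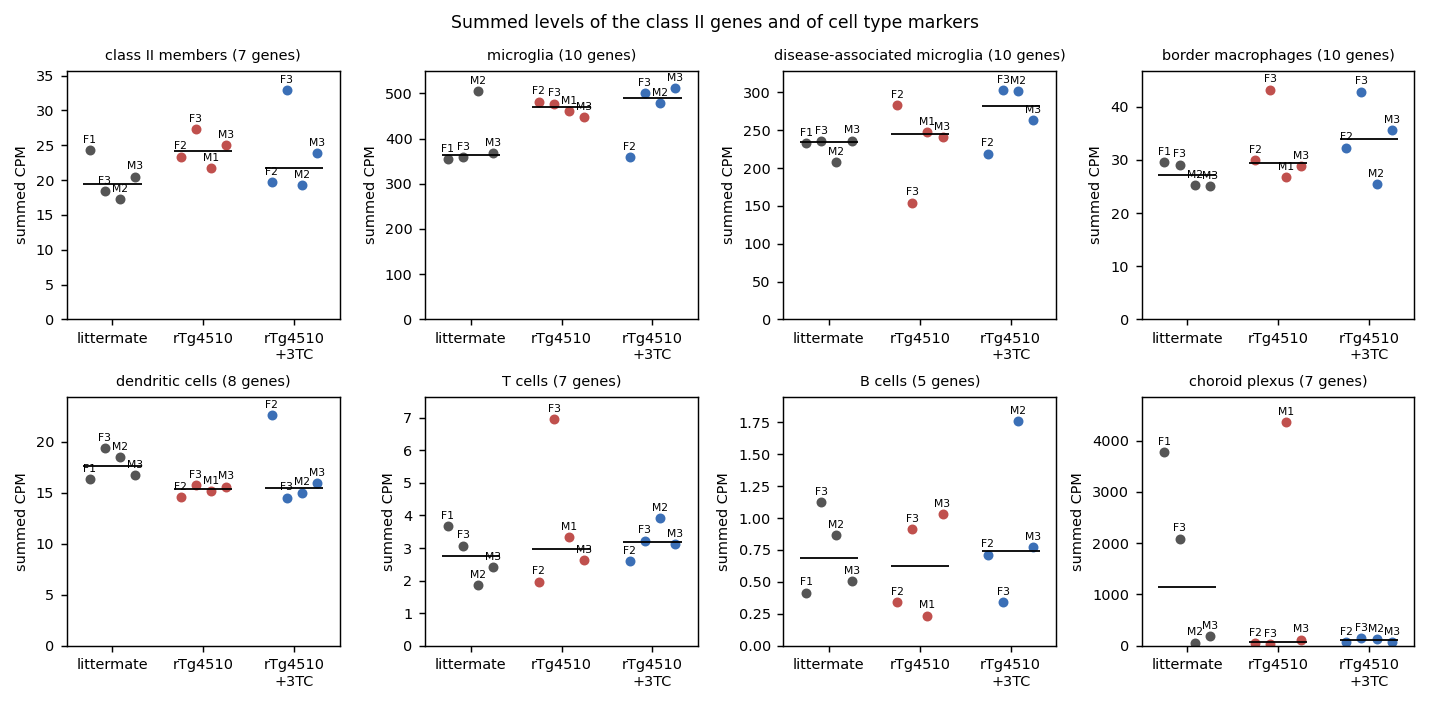
Summed CPM of the 7 MHC class II genes and of the markers of 7 cell types (panels, y axes linear from 0) in the 3 groups (x axis). Points are libraries with their codes and lines are group medians. The class II sum and the border macrophage sum are both highest in rTg4510 F3 and rTg4510+3TC F3. H2-DMa alone makes up 8.09 to 13.6 CPM of the class II sum.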

How the data were processed

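Read counts per gene of 12 hippocampal polyA RNA libraries were used as deposited by the authors. STAR, DESeq2 and mm10 are named, without versions, in the submitters' processing notes. No source used here states the strand setting or the annotation. Of 24411 entries, 27 are dates in place of gene symbols (0.285% to 0.363% of counts) and were left out, so the genes of class II surface turnover (MARCH family) were not analysed here.

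Genes were kept by edgeR's filterByExpr (minimum count 10, total 15), which left 16618. Counts were scaled by TMM and tested with edgeR 4.0.16 (quasi-likelihood F-test, R 4.3.3, 1 mean per group, all 12 libraries), with Benjamini-Hochberg adjustment over all tested genes and a threshold of 0.05. The difference between sexes was fitted on the 8 transgenic libraries. The fit was tested on simulated data. Alternatives were DESeq2 1.42.0, limma-voom (limma 3.58.1) with and without quality weights, other filters and scaling, sex terms, a replicate block and left-out libraries.

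The members and lists were chosen with earlier results of these data known. All members are named, and of each other list up to 2 genes with the smallest p in a comparison. Further list genes are named outside this rule, with the counts known. They are given as examples, for their level in single libraries or for their part in a sum. The lists of hippocampal neuron and sex-linked genes and of overlapping genes were added after the counts were seen, as were the motif letters. Positions are from GENCODE M21, and promoters from RefSeq. Exact Poisson 95% intervals and the floor of 3 counts cover counting error only. Some genes of these lists are not reported here.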

Additional observations from a re-analysis of the deposited data

Results flagged for a closer look

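In littermates, Cd74 was at 4.34 CPM in F1, far from 1.66 to 2.08 CPM in the other 3 libraries, a gap of 0.844 of the group's range. In rTg4510+3TC, H2-Ab1 was at 3.52 CPM in F3, far from 1.30 to 1.39 CPM in the other 3, a gap of 0.958 of the range. With 21 groups examined (7 genes in 3 groups), chance alone sets apart about 1 in 20.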

How the results depend on the processing

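No class II gene passed in any of the 3 comparisons under any of the 24 alternatives. The smallest adjusted p was 0.1996, for Ciita in rTg4510+3TC against littermates under limma-voom with quality weights. Across these alternatives 24 log2 fold changes turned sign, in 8 of 21 results, and the cause was not tested. For rTg4510 against littermates these were H2-Eb1 (-0.19 with quality weights, -0.38 without littermate M2, rTg4510 F3 and rTg4510+3TC F2, and -0.18 to 0.52 leaving out 1 library), H2-DMb1 (-0.11 and -0.14 under the first 2 of these) and Ciita (-0.00398 without the 3 libraries highest in Ttr, and -0.080 to 0.24 leaving out 1 library). For rTg4510+3TC against rTg4510 they were H2-Ab1 (0.00997 with the replicate block, -0.54 to 0.29 leaving out 1 library), Cd74 (-0.20 to 0.32) and H2-DMb1 (-0.21 to 0.54). For rTg4510+3TC against littermates they were H2-Ab1 (-0.038 to 0.59) and H2-Aa (0.22 without the Ttr libraries, -0.65 to 0.089 leaving out 1 library). Over all genes, 5 were called for rTg4510 against littermates, 0 for rTg4510+3TC against rTg4510 and 8 for rTg4510+3TC against littermates. DESeq2 called 22, 1 and 100, and quality weights 15 and 38 against littermates. Without the trio of littermate M2, rTg4510 F3 and rTg4510+3TC F2 the counts against littermates were 36 and 71, without the Ttr libraries 0 and 0, and with the replicate block 0 and 0. Leaving out 1 library gave 4 to 9 and 6 to 16. For the sex difference (0 genes) DESeq2 called 4, and leaving out 1 library gave 0 to 13, where a lone library is assumed to vary like the others. No strong pairing of libraries by replicate code was seen, since 0 of 8 same-code pairs deviated together with r over 0.1 (-0.246 to 0.0504). This check cannot detect a weak pairing, and the sex in the codes of littermates F3 and M3 went against their counts. Depth limits H2-Eb1 and H2-Aa most, with as few as 5 and 6 reads in a library.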
